A study of Mus musculus with 4 samples.

Results

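Transcripts of the endoplasmic reticulum (ER) folding machinery and of its stress response were examined in NIH3T3 cells, an immortalised mouse fibroblast line. Cells kept with tetracycline were compared with cells from which it was withdrawn in order to induce PKR. The level of PKR is not reported here. Of 9 listed genes, 8 had at least 1 probe set with that gene as its only symbol. They were represented by 12 of 13057 probe sets, 8 on the first array type and 4 on the type that the titles mark MB. Members were taken by gene symbol alone: the transcription factor gene Xbp1, the membrane protein gene Herpud1, the chaperone genes Hspa5, Hsp90b1, Calr and Canx, and the disulfide isomerase genes Pdia3, Pdia4 and Pdia6. No probe set carried Hsp90b1 as its only symbol, so that gene has no value here.

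The stable line carries wild-type PKR, a kinase activated by double-stranded RNA, under a promoter that tetracycline represses. In the control condition the cells received DMEM with 5% FCS and 1 µg/ml tetracycline, and in the other tetracycline was withdrawn for 5 h to induce PKR. The labels state serum for the control cultures but not for the withdrawn ones, do not give the species of the transgene, and do not state whether the line is 1 clone. Total RNA of each condition was read on 1 array of each type, 4 arrays in all. No difference therefore has a replicate check, no p-value was computed, and the number of arrays limits the precision.

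Proteins that enter the ER are folded by the HSP70 chaperone BiP (Hspa5), the HSP90 chaperone GRP94 (Hsp90b1), the lectin chaperones calreticulin and calnexin (Calr, Canx) and oxidoreductases of the disulfide isomerase family. When unfolded proteins accumulate, the sensors IRE1, ATF6 and PERK start the unfolded protein response. IRE1 splices Xbp1 mRNA into a form that encodes an active transcription factor, ATF6 is released as a transcription factor that induces chaperone genes and Xbp1, and PERK phosphorylates eIF2 alpha. PKR phosphorylates the same site of eIF2 alpha without a signal from the ER, and ATF4 translation follows eIF2 alpha phosphorylation in either case. Herpud1 encodes a membrane protein of ER-associated degradation whose gene is a target of both the ER stress factors and ATF4.

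Xbp1 and Herpud1 were both higher after withdrawal, by 1.80-fold and 2.38-fold. The 6 measured chaperone and isomerase genes went both ways, with log2 changes from -0.44 for Calr to 0.54 for Pdia4 and a median of -0.09. None of the 9 measured chaperone probe sets reached 1.5-fold in either direction. Among all measured probe sets 8.86% reached it upward and 6.67% downward on the first type, and 8.8% and 5.19% on the MB type. A count of 0 among 9 lies near these shares.

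The promoters of the members are shown before their values because they carry the DNA elements by which this response is known to act. RefSeq windows of GRCm38.p6, from 250 bases before to 50 after the annotated gene start, were found for all 9 genes. They were searched on both strands for exact copies of the ER stress response element ERSE (CCAAT, then 9 bases, then CCACG), of ERSE-II (ATTGG, then 1 base, then CCACG), of the XBP1-binding element UPRE (TGACGTGG) and of the core of the amino acid response element that ATF4 binds (AARE core, TTGCATCA). ERSE was found in 0.119% of all 32851 windows, ERSE-II in 0.0365%, UPRE in 0.676% and the AARE core in 0.895%. Among the chaperone genes 5 of 7 windows held an ERSE, and the Herpud1 window held both an ERSE-II and an AARE core. The motifs were chosen as elements already known for these pathways, so such matches are no independent finding. No copy of any of the 4 motifs was present in the windows of Xbp1, Pdia3 and Pdia4. A match describes letters only and does not show binding, and a window without a match can hold diverged copies or elements elsewhere.

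The Herpud1 window, chr8:94386179-94386478 on the plus strand, is printed whole because it is the member with the largest change and the only one with an AARE core. Capitals mark first the AARE core, from 112 to 105 bases before the gene start, and then the ERSE-II, from 52 to 42 bases before it.
Herpud1: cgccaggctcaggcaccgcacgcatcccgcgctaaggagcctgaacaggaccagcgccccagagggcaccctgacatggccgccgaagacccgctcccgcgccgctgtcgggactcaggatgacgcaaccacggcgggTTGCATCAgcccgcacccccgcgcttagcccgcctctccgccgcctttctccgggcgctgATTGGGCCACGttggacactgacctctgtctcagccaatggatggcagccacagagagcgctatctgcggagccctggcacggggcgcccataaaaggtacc

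The ERSE copies of the chaperone genes are printed in capitals with 15 bases on each side, each 5′ to 3′ in the orientation that starts with CCAAT. The stretches lie at chr2:34772010-34772058 for Hspa5, chr8:84847060-84847108 for Calr and chr12:17266476-17266524 for Pdia6, all on the plus strand, and at chr11:50325785-50325833 on the minus strand for Canx. The 2 stretches of Hsp90b1 lie at chr10:86705518-86705566 on the plus strand and chr10:86705623-86705671 on the minus strand. The 9 spacer bases inside the element differ from gene to gene.
Hspa5: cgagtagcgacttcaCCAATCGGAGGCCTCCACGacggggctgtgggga
Hsp90b1, minus strand: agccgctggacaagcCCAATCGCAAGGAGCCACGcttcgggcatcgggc
Hsp90b1, plus strand: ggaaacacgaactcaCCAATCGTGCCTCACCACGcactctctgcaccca
Calr: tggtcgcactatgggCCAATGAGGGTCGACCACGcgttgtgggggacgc
Canx: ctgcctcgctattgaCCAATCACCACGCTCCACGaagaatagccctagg
Pdia6: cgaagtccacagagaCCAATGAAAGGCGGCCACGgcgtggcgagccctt

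**Figure D1:**
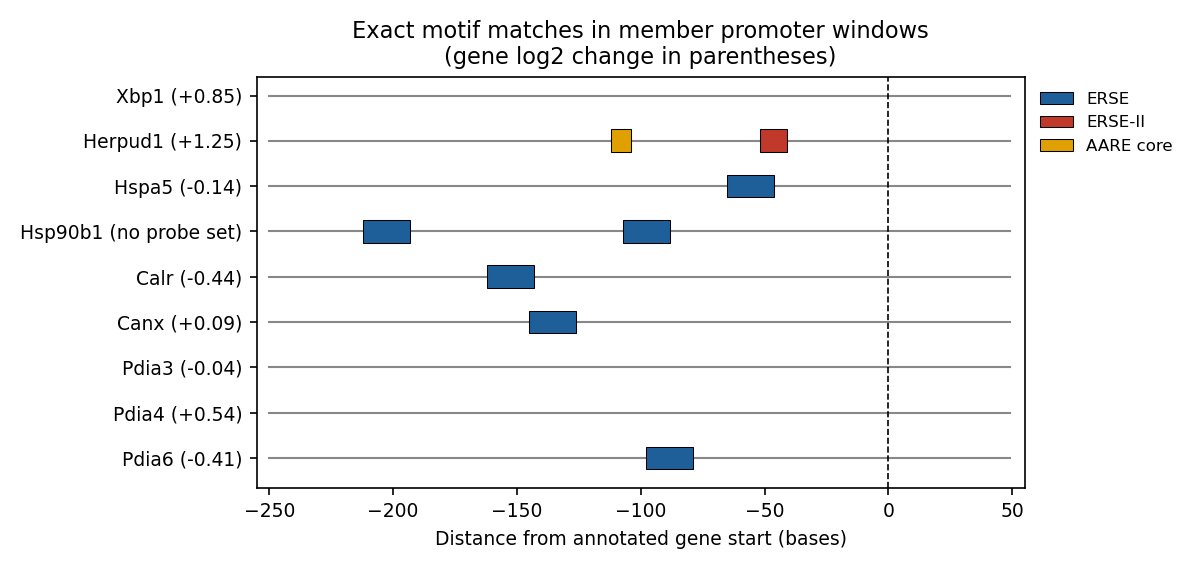
Exact motif matches in the 300-base promoter window of each member, by distance in bases from the annotated gene start (dashed line), with ERSE in blue, ERSE-II in red and the AARE core in yellow. The log2 change of each gene stands in parentheses. The 4 measured genes with an ERSE lie between -0.44 and 0.09, while Herpud1, with an ERSE-II and an AARE core, stands at 1.25. Xbp1 (0.85), Pdia4 (0.54) and Pdia3 (-0.045) have no match to any of the motifs.

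Values are deposited linear intensities, 1 per probe set and array, and can be compared between conditions but not between probe sets. A probe set was counted as measured when both intensities exceeded the control floor, set at the 95th percentile of 39 control probe sets for bacterial and yeast sequences on its array type (281.5 for the first and 340.43 for MB). Changes are given as the log2 ratio of withdrawn to tetracycline intensity. The spread beside a change is the scaled median absolute deviation among the 200 measured probe sets of most similar level on that type. It mixes measurement noise with true differences and does not replace an error between replicates. On the 4 arrays between 47.0% and 61.7% of probe sets exceeded the floor, and the 3' to 5' intensity ratio lay between 0.93 and 1.05 for the beta-actin control and between 0.71 and 0.83 for Gapdh. Of the 12 member probe sets 11 were measured.

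Xbp1, the transcription factor gene, was read by 1 probe set on the first type. Its intensity was 2337.8 with tetracycline and 4210.3 after withdrawal, a log2 change of 0.85 against a spread of 0.31. Of 3555 measured probe sets of this type, 116 (3.26%) were higher by as much or more. The table holds 1 intensity for the gene and does not separate the spliced from the unspliced form of Xbp1 mRNA.

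Herpud1, the ER-associated degradation gene, was also read by 1 probe set on the first type. Its intensity was 636.7 with tetracycline and 1516.3 after withdrawal, a log2 change of 1.25 against a spread of 0.44. Only 28 of the 3555 measured probe sets (0.788%) were higher by as much or more. It was the only member past 2-fold, a limit that 1.88% of measured probe sets on the first type reached upward and 1.29% downward. At 1.5-fold, where these shares were 8.86% and 6.67%, the members counted were Herpud1 and Xbp1, both higher. Each of the 2 genes rests on a single probe set, and neither has a measured probe set on the MB type. Both probe set names carry the suffix s, grouped here with shared or reduced probe sets. Neither gene has a value once suffixed probe sets are removed.

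**Figure D2:**
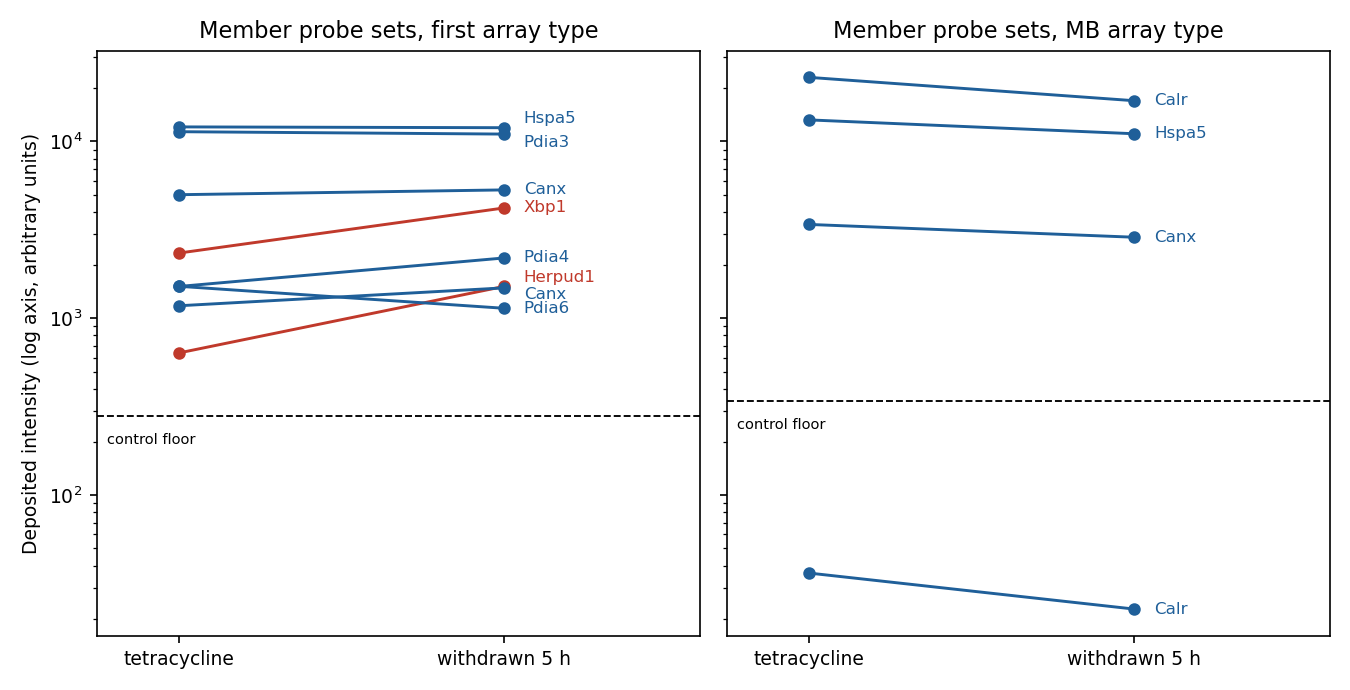
Deposited intensity (log axis, arbitrary units) of each member probe set with tetracycline and after 5 h of withdrawal, on the first array type (left) and the MB type (right), with 1 array per point. Xbp1 and Herpud1 are in red, chaperones and isomerases in blue, and the dashed line is the control floor. The red lines slope upward, from 2337.8 to 4210.3 and from 636.7 to 1516.3, while the line of Hspa5 on the first type is nearly level, from 12089.8 to 11964.3.

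Hspa5, which encodes BiP, the ER HSP70 that holds the sensors inactive in unstressed cells, was read on both types. On the first type it gave 12089.8 with tetracycline and 11964.3 after withdrawal, a log2 change of -0.015 with a spread of 0.26. On the MB type it gave 13246.2 and 11058.1, a change of -0.26 with a spread of 0.25. Neither probe set was higher after withdrawal. The names of both probe sets carry the suffix f, which in the Affymetrix scheme marks probes that may be shared within a gene family, and the share of other HSP70 transcripts in these values was not tested.

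Calr, the soluble lectin chaperone and calcium store protein, was read on the MB type by a measured probe set at 23050 with tetracycline and 17000.9 after withdrawal. This log2 change of -0.44 was the lowest among the members, against a spread of 0.20, and 285 of 2738 measured probe sets of the type (10.4%) were lower by as much or more. A second Calr probe set read 36.3 and 22.7, below the floor on both arrays, and gives no fold. The 200 probe sets nearest in level to the measured one had a median change of -0.13, so the median probe set at that level was lower too.

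Canx, the membrane-bound lectin chaperone, was read by 3 probe sets that did not move together. On the first type its intensities were 1177.5 and 1486.9 for one probe set and 5000.4 and 5323.4 for the other, log2 changes of 0.34 and 0.090. On the MB type they were 3396.4 and 2874.3, a change of -0.24. The 3 spreads lay between 0.27 and 0.37, so no Canx change exceeded its spread, and the largest distance between its probe sets was 0.58. For comparison, 207 pairs of measured probe sets of 1 gene on different array types (171 genes) differed by a median of 0.27, and in 10% of pairs by more than 0.76.

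The 3 disulfide isomerase genes lay apart from each other on the first type. Pdia4, which encodes the isomerase ERp72, read 1513.7 with tetracycline and 2195.3 after withdrawal, a log2 change of 0.54 against a spread of 0.37, and 366 of 3555 probe sets (10.3%) were higher by as much or more. Pdia6, which encodes the isomerase P5, read 1518.1 and 1139.7, a change of -0.41 against a spread of 0.37. The name of this probe set also carries the suffix f, and without the 3 such probe sets, those of Hspa5 and Pdia6, the chaperone median was 0.023. Pdia3, which encodes ERp57, the isomerase that works with calnexin and calreticulin on glycoproteins, read 11358.4 and 11010.3, a change of -0.045 against a spread of 0.26. The 200 probe sets nearest Pdia3 in level had a median change of -0.11, and Pdia3 minus that median was 0.070. Pdia4 was therefore the highest chaperone or isomerase, at 1.45-fold, and Pdia6 one of the lowest.

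**Figure D3:**
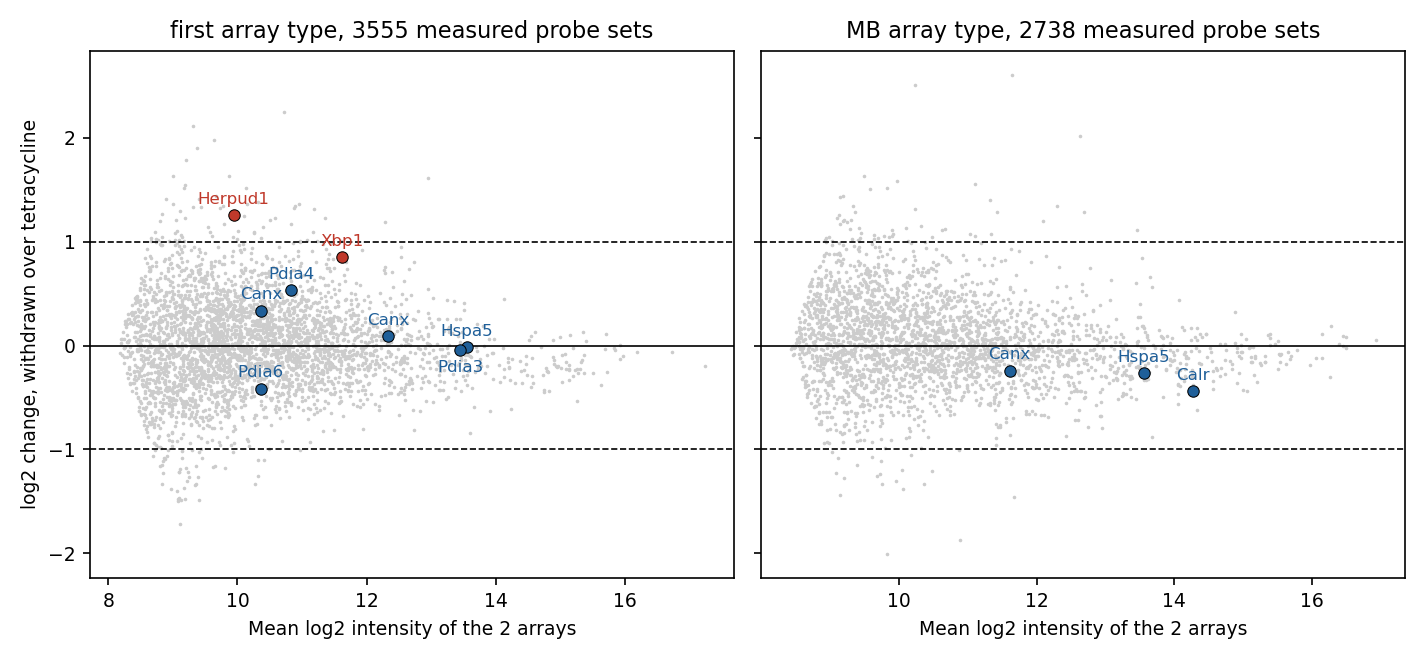
log2 change (withdrawn over tetracycline) of each measured probe set against its mean log2 intensity, on the first array type (left) and the MB type (right). Grey points are all measured probe sets, red points Xbp1 and Herpud1, blue points chaperones and isomerases, and dashed lines mark 2-fold. Herpud1 at 1.25 lies above the upper dashed line, Xbp1 at 0.85 just below it, and the other members between -0.44 and 0.54.

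Set side by side, the mean log2 change of Xbp1 and Herpud1 was 1.05 and the median of the 6 chaperone and isomerase genes -0.09, a difference of 1.14. This median includes MB values, while Xbp1 and Herpud1 were read on the first type only. With the first type alone the median of 5 chaperone and isomerase genes was -0.015 and the difference 1.07. Xbp1 was higher than the highest chaperone probe set, Pdia4, by 0.31 and Herpud1 by 0.72 on the log2 scale. The distance of Xbp1 from Pdia4 is of the size of their spreads, 0.31 and 0.37. Pairs of measured probe sets of 1 gene on the same type differed by a median of 0.28. With 1 array per condition and type that distance is not resolved. All 3 chaperone probe sets measured on the MB type were lower after withdrawal, with a median of -0.26, whereas on the first type 3 were higher and 3 lower, with a median of 0.038. On the MB type 51.1% of measured probe sets were higher and on the first type 48.8%. However, the 200 MB probe sets nearest in level had median changes of -0.12 for Hspa5, -0.13 for Calr and -0.066 for Canx. Minus these medians the changes were -0.14 for Hspa5, -0.31 for Calr and -0.17 for Canx, against spreads of 0.25, 0.20 and 0.33. The MB type had 1.97% of measured probe sets at least 2-fold higher and 0.767% lower, and 8.8% and 5.19% at 1.5-fold; no member was among them. The sign of the chaperone median depended on the scaling: it was 0.0040 with quantile normalization and 0.0054 after loess on level, while Xbp1 stayed between 0.83 and 0.90 and Herpud1 between 1.21 and 1.30 under the scalings tried. The gap between the pair and the chaperone median ranged from 1.02 to 1.20 over the 10 alternatives that measured both, of which only the 4 scalings could move Xbp1 and Herpud1 themselves.

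**Figure D4:**
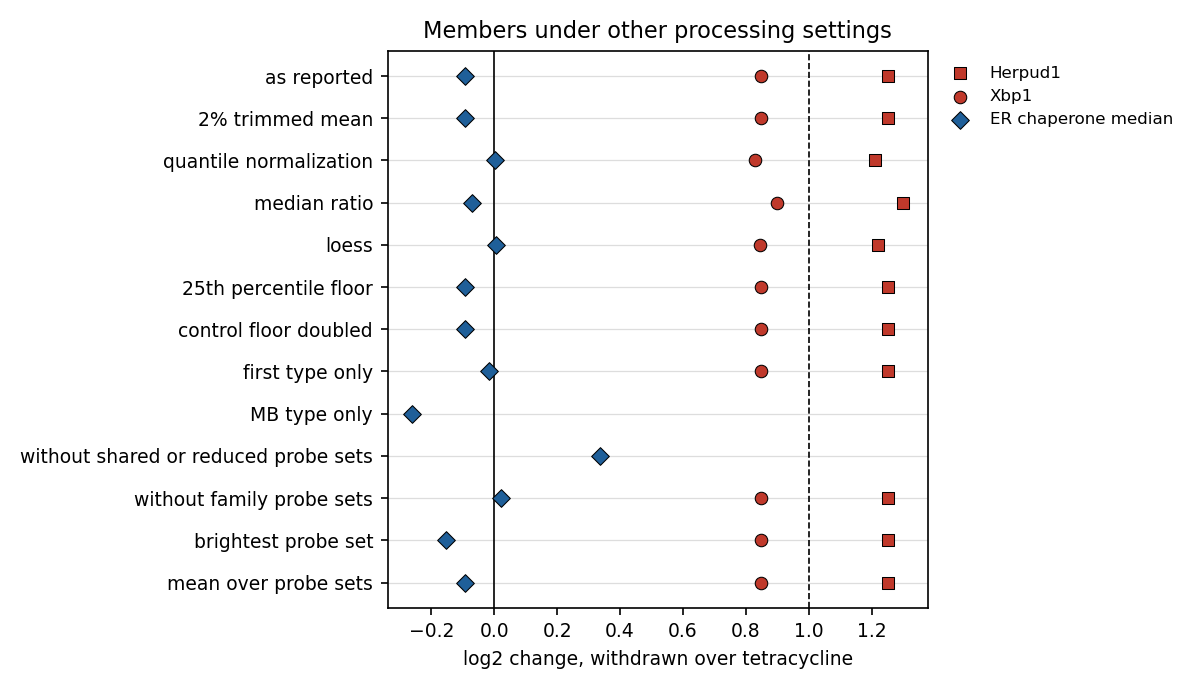
log2 change (withdrawn over tetracycline) of Herpud1 (red squares), of Xbp1 (red circles) and of the median chaperone gene (blue diamonds) as reported and under other processing settings, with the dashed line at 2-fold. Only the 4 scalings can move Herpud1 and Xbp1, each read by 1 probe set, and under these they lie at 1.21 to 1.30 and at 0.83 to 0.90, while the chaperone median lies between -0.26 and 0.34, the upper value resting on a single Canx probe set.

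Other genes of the ER were followed in lists, taken per gene as the median over measured probe sets of both types. Over all 3582 measured genes 49.2% were higher, the median change was -0.0066, and 2.07% were at least 2-fold higher and 1.2% lower. Of 21 measured ER folding factors outside the members, 4 were higher and 17 lower, none by 2-fold, with a median of -0.16. Between 16 and 18 of them were lower under the 4 other scalings. The lowest were Creld2, an ER stress-inducible secreted protein (1155.3 to 606.3, log2 change -0.93), the ER oxidase Ero1b (520 to 319.7, -0.70) and Erp44, which retains such oxidases in the ER (1125.5 to 762, -0.56). Picked after their values were seen for their known roles, the stress-inducible secreted factor Manf was at -0.31, the isomerase P4hb at -0.43 and the collagen chaperone Serpinh1 at -0.30. The 4 higher ones, likewise named after their values were seen, were the cochaperone gene Dnajc10 (0.35), the glucosidase subunit genes Prkcsh (0.31) and Ganab (0.11), and Fkbp2 (0.011).

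Genes for the exit routes of the ER were mostly lower. Of 6 measured genes of ER-associated degradation besides it, 1 was higher and 5 lower, none by 2-fold, with a median of -0.11. Ufd1, a cofactor of the extracting ATPase, was at -0.66 (480.1 to 303), the mannosidase gene Man1b1 at 0.50 (559.2 to 788.3), and Vcp, the ATPase itself, at -0.37 over 3 probe sets that were each lower. Of 15 genes of ER to Golgi transport, 4 were higher and 11 lower, with a median of -0.08 and 2 genes past 2-fold downward. These were the COPI coat subunit gene Cope (1346 to 594.1, -1.18) and the cargo receptor gene Surf4 (2845.6 to 1419.1, 2.01-fold lower). The cargo lectin gene Lman1 was lower on its 3 probe sets, with a median of -0.44.

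Genes for entry into the ER and for glycosylation went both ways. Of 13 translocation genes 6 were higher and 7 lower, with a median of -0.08. The largest changes were Tram1, a protein of the translocation channel (360 to 530.3, 0.56), the signal recognition particle receptor Srpr (1133.9 to 910.2, -0.32) and the channel subunit Sec61a1 (-0.27 over 2 probe sets). Of 10 genes of N-glycan synthesis and transfer 6 were higher and 4 lower, with a median of 0.10 but a mean of -0.16. The lowest were Dpm3, a subunit of dolichol phosphate mannose synthase (1002.8 to 305.9, -1.71), and the oligosaccharyltransferase subunit Dad1 (2989.8 to 1919.4, -0.64), while Gfpt1, the first enzyme of the hexosamine pathway, was at 0.43 over 2 probe sets. Of the ER calcium genes 2 were measured, the calcium pump gene Atp2a2 (413.9 to 705.8, 0.77) and the calcium sensor gene Stim1 (0.021).

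Among the sensors and related factors 4 genes were measured, 2 higher and 2 lower, with a median of -0.05. The sensor gene Atf6 read 754.9 with tetracycline and 494 after withdrawal (-0.61, spread 0.50), its paralogue Atf6b 944.6 and 1337 (0.50, spread 0.41), and the related factor gene Creb3 1225.4 and 1079.3 (-0.18). All 10 measured genes of the eIF2 alpha phosphorylation branch were higher, 4 of them by 2-fold, with a median of 0.84. They included the pseudokinase gene Trib3 (306.8 to 1326, 2.11), the eIF2 alpha phosphatase subunit gene Ppp1r15a (1293.3 to 3786.4, 1.55) and the transcription factor genes Cebpg (663.9 to 1401.5, 1.08) and Atf3 (368.4 to 743.1, 1.01). The values of Herpud1 (1.25) and Xbp1 (0.85) lay within the range of the 10 eIF2 branch genes, from 0.18 to 2.11. So did Pdia4 (0.54), Atp2a2 (0.77) and other genes of the ER lists. The range therefore does not set Herpud1 and Xbp1 apart. The eIF2 branch list was chosen with its earlier results known and gives no independent support. Chaperones outside the ER had a median of 0.0060 over 19 genes, 11 higher and 8 lower, with Dnajb1 (0.50), Hsph1 (-0.42) and Hspd1 (-0.28) the farthest.

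**Figure D5:**
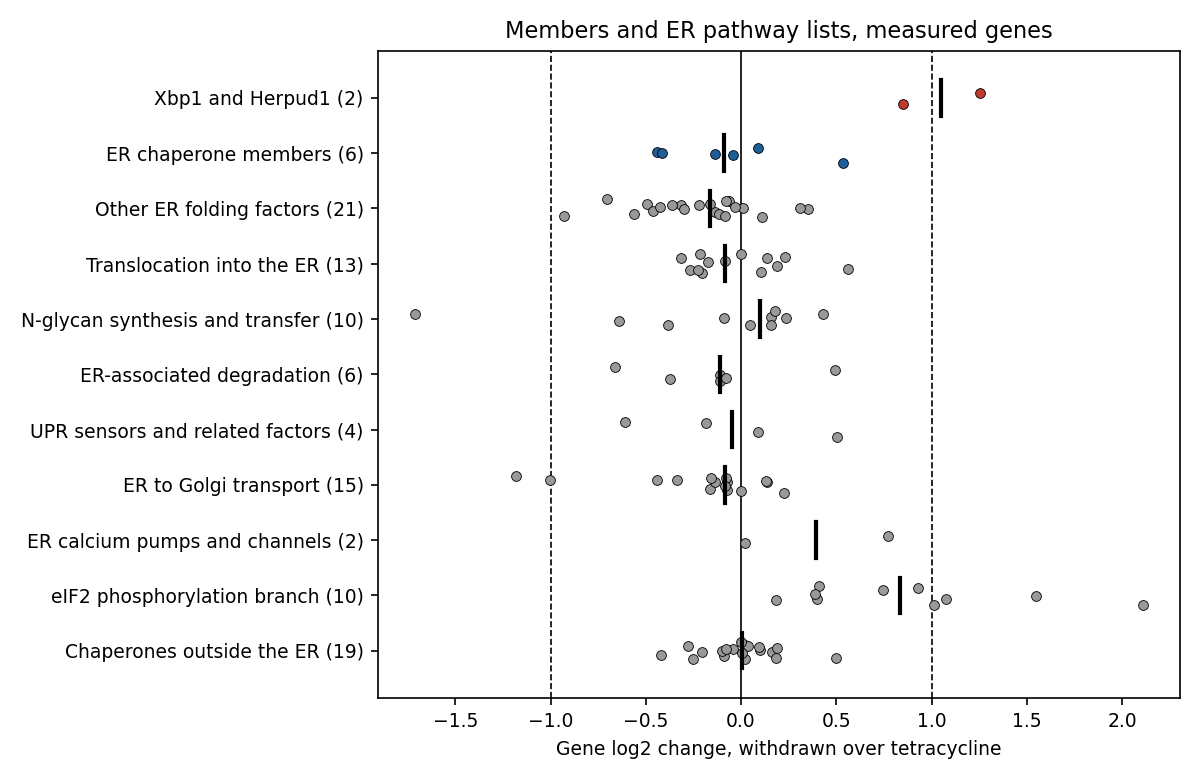
Gene log2 change (withdrawn over tetracycline) of the measured members and of the ER pathway lists, 1 point per gene, with the number of measured genes in parentheses, the list median as a black bar and dashed lines at 2-fold. The 10 genes of the eIF2 phosphorylation branch lie from 0.18 to 2.11, a range that also holds Xbp1, Herpud1, Pdia4 and genes of other lists. Below 0 lie 17 of the 21 other ER folding factors.

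Among all genes the ERSE was carried by 37, of which 8 were measured, and 2 of these were higher and 6 lower, with a median of -0.28. Besides Hspa5, Calr, Canx and Pdia6 they were Creld2 (-0.93), Ero1b (-0.70), the BiP cochaperone gene Dnajc3 (-0.08) and Zfp57 (0.050), the last 2 named after their values were seen. Of 6 measured genes with an ERSE-II, Herpud1 was the only one past 1.5-fold, and the other 5, named here after their values were seen, were Rbm39 (0.29), Rcl1 (0.018), Krtcap2 (0.0094), Dnajb11 (-0.14) and Nucb1 (-0.36). Of 20 measured genes with an AARE core 11 were higher and 9 lower, with a median of 0.18. The 3 past 2-fold were all higher: Herpud1, Atf3 and the amino acid transporter gene Slc1a4 (1.30), which is named after its value was seen. Of 37 measured genes with a UPRE 16 were higher and 21 lower, with a median of -0.06. At 1.5-fold 3 of these were higher and 3 lower, and the only one past 2-fold was Dhx40 (1.10), named after its value was seen. For comparison, the median over all 2891 measured genes with a promoter window was -0.014, with 58 of them (2.01%) at least 2-fold higher and 38 (1.31%) lower.

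The labelled cell type was checked against markers. Fibroblast markers had 17 of 19 probe sets above the floor on both arrays of their type, with Lum and 1 of the Col3a1 probe sets below it. Their summed intensity was lower after withdrawal on both types (61024.7 to 49178.8 and, for MB, 191129 to 155639), and 8 of 11 measured genes were lower, with a median of -0.20. S100a4, a calcium-binding protein of fibroblasts, was at -0.84 (16724.2 to 9318.4), which made up a large part of the fall in the first-type sum. The growth factor receptor genes Pdgfra and Pdgfrb were at -0.43 and 0.51. The secreted matrix genes Dcn (0.35) and Fn1 (0.076), named after their values were seen, were the other higher ones. Whether these levels bear on those of the ER folding factors was not tested. Markers of B and plasma cells, in which Xbp1 is abundant, summed to 2502.6 and 2050.5 on the first type and to 2069.1 and 1189.5 on the MB type. Of their 14 probe sets 6 lay above the floor in the control cells and 2 after withdrawal. At least 1 probe set each of Cd79a, Ighm, Jchain, Ms4a1, Prdm1 and Sdc1 lay below it in both conditions. These genes were named after their values were seen. The 2 measured genes, each through another probe set, were the plasma cell marker Sdc1 (0.63) and the B cell marker Ms4a1 (-0.22). The cultures are of the stable NIH3T3 line and not of a mixed tissue. What these marker intensities come from, and their bearing on the Xbp1 value, was not tested. Macrophage markers had 2 of 5 probe sets above the floor in each condition, those of Ptprc (-0.96) and Lyz2 (0.38), with sums of 1257.6 and 1104.2 on the first type and 76.2 and 81.1 on the MB type. Of 7 epithelial probe sets 1 lay above the floor in the control cells and 2 after withdrawal, with Krt8 at -0.40 and sums of 1025.2 and 1175.2 on the first type and 257 and 458.8 on the MB type. Within the line, fewer cells that express a marker and less of its RNA per cell cannot be told apart in such bulk samples.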

How the data were processed

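In the tables that the authors deposited, each probe set has 1 intensity per array. How these were made is not given in the sources used here, and the linear scale was read from the values. The 2% trimmed means of the arrays of a type lay within 5% of each other (998.3 and 998.7 for the first, 994.3 and 995.2 for MB), and no scaling was added. After removal of 61 control probe sets per type, 6523 and 6534 probe sets stayed. Symbols came from GEO's platform annotation, updated through Entrez identifiers: 5541 and 2001 probe sets had 1 symbol, 197 and 27 several, and 785 and 4506 none.

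With 1 array per condition and type, changes were described by counts and medians, with no test. The members, the lists and the rules were chosen with earlier results of these data known. Named are all members, and of each list the 3 genes with the largest absolute change, and 1 more where it passed 2-fold; other names are said to be chosen later. The counting was tested on simulated data. Tools were statsmodels 0.14.6, matplotlib 3.10.9, pandas 2.3.3 and numpy 2.4.6 under Python 3.11.15. Alternatives were 4 scalings (loess on level at a span of 0.4, median ratio, quantile, 2% trimmed mean), a floor at the 25th percentile of a type's values (129.7 and 80.0), a doubled control floor, 1.5-fold and 3-fold limits, each type alone, the brightest probe set or the mean per gene, and removal of probe sets with suffixes f, s, g, r or i. Removal of suffix f alone was added after the data were seen. Promoter sequences are from RefSeq, GRCm38.p6; the files name no build.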

Additional observations from a re-analysis of the deposited data

How the results depend on the processing

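Of 439 comparisons of a result with an alternative, 37 moved by the limits given next, and none turned the direction of a 2-fold change. A count was taken as moved when it differed by over 1.5 times, a gene when it moved by more than its spread, and a list median when it moved by more than the robust SD of all genes (0.38) over the square root of its number of genes. Of the settings that measured Xbp1 and Herpud1 only the 4 scalings could move them, since each has 1 probe set (0.83 to 0.90 and 1.21 to 1.30). The count of member probe sets 2-fold higher was 1 and became 2 at 1.5-fold and 0 at 3-fold, on the MB type alone and without suffixed probe sets, which leaves 1 member probe set, of Canx. The chaperone median of -0.09 was -0.26 on the MB type alone and 0.34 without suffixed probe sets; it was also above 0, at 0.023, without suffix f. Canx was at -0.24 on the MB type alone, and Pdia3 changed sign with quantile (0.058), median ratio (0.0039) and loess (0.051).

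On the MB type alone the medians were -0.43 for other ER folding factors, -0.19 for translocation and -0.39 for degradation. Without suffixed probe sets they were -0.24 for folding, 0.38 for glycosylation, -0.25 for sensors, 2.11 for the eIF2 branch and 0.25 for Golgi transport, resting on 1 to 4 genes each. The eIF2 branch was at 0.41 with the doubled floor and 0.71 on the first type, and ER calcium genes at -0.44 with the 25th percentile floor and 0.021 with the doubled floor. Counts of 2-fold higher eIF2 branch genes, 4 as reported, were 1 with the doubled floor, at 3-fold and without suffixed probe sets, and 2 on either type alone. Lower glycosylation genes, 1 as reported, were 0 with the doubled floor, on the MB type and without suffixed probe sets, and 2 at 1.5-fold. Lower Golgi transport genes, 2 as reported, were 1 with the median ratio and 0 at 3-fold, on the MB type and without suffixed probe sets. At 1.5-fold 2 folding, 1 degradation and 1 sensor gene were lower and 1 calcium gene higher, and 1 calcium gene was lower with the 25th percentile floor, against 0 as reported. Type-only, suffix and floor settings change which genes are measured; other causes were not tested. Xbp1 and Herpud1 have no MB value. No paired analysis was possible because each condition has 1 array of each type. No replicate could be left out, and intensity over the control floor limits which genes could be described.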
